A study of Homo sapiens with 24 samples.

Results

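The genes described here carry iron into human cells, store it, export it and sense it. They were 9 genes taken by name: TFRC, STEAP3 and SLC11A2 for uptake, FTH1, FTL and NCOA4 for storage and release, SLC40A1 for export, and ACO1 and IREB2 for sensing. Of these 9, 8 had a gene identifier among the 51715 genes of the count tables. NCOA4, the receptor that delivers ferritin to autophagy, could not be matched to an identifier and has no value below.

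Poly(A)-selected RNA of whole cells (total RNA) and of their cytoplasm (cytoplasmic RNA) was sequenced in 3 untreated human cancer cell lines. U-2 OS is an osteosarcoma line, U-251MG a glioblastoma line and A-431 an epidermoid carcinoma line, and wherever 3 values stand in a row without names they follow this order. The labels give 4 libraries of each fraction in each line, 24 in all, and the study's methods describe them as biological replicates from separate cultivations. For the cytoplasmic fraction a mild detergent buffer replaced the standard lysis buffer of the extraction kit, so that nuclei stay whole. No agent, allele or time point differed between groups, and each tumour type is represented by a single line. Libraries are numbered 1 to 24 in the order of the labels.

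The libraries held 19918911 to 32394170 counts in genes. U-2 OS cytoplasmic library 13 was left out of the comparisons because its read totals matched the study's list in only 1 of 4 values, which leaves 23 libraries. In library 13, 18.6% of all entries were counted to no feature, against 12.2% to 15.4% elsewhere. These entries include reads that do not lie wholly within exons. A-431 carried EGFR at 16060 ± 947 CPM (SD, n = 4, total RNA), where CPM (counts scaled to library depth) use the trimmed mean of M-values (TMM). EGFR stood at 37.1 ± 3.65 CPM in U-2 OS. Of 8 squamous epithelium markers, EGFR among them, 6 were called higher in A-431 than in U-2 OS in total RNA and 2 lower. Against U-251MG 7 were called higher in A-431 and 0 lower. Over all genes 65.9% and 57.6% were called in these comparisons. SPARC, an osteoblast lineage marker, was at 1534 ± 34.95 CPM in U-2 OS but also at 2206 ± 110 CPM in U-251MG, and GFAP, a defining astrocyte marker, was at 2.65 ± 0.167 CPM in U-251MG. Over the whole lists, 5 of 6 glial and neural stem cell markers were called higher in U-251MG than in U-2 OS in total RNA and 1 lower, with VIM and SOX2 at means of 6941 and 121 against 1865 and 18.4 CPM. Of 7 osteoblast lineage markers 3 were called lower in U-251MG, among them COL1A1 (12.9 against 1218 CPM), and 4 higher. Between U-251MG and U-2 OS 62.9% of all genes were called in total RNA. VIM, SOX2 and COL1A1 are named after their values were seen. Markers of blood and endothelium summed to at most 1.81 CPM in any group. The nuclear RNAs MALAT1 and NEAT1 were higher, not lower, in the libraries labelled cytoplasmic in every line: NEAT1 was at 216 ± 71.4 CPM in total and 686 ± 55.0 CPM in cytoplasmic RNA of A-431, and MALAT1 at 11.8 ± 4.81 and 31.7 ± 5.87 CPM. Of these RNAs, MALAT1 passed the test between fractions in the other lines and NEAT1 in A-431. The study's own screen ran the way the labels say: extracts were examined by capillary electrophoresis for a nuclear peak, which total RNA showed and cytoplasmic RNA lacked, apart from a U-2 OS cytoplasmic sample that was removed. Every ratio below compares libraries under these labels, and the part of the excess in the ratios was not tested. All total RNA libraries, and 3 of the cytoplasmic libraries, were run on flow cell A. All A-431 cytoplasmic libraries were run on flow cell B, so fraction and flow cell cannot be told apart in that line.

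Iron enters most cells bound to transferrin. The transferrin receptor TFRC takes it up, the reductase STEAP3 converts it to the ferrous form in the endosome, and the transporter SLC11A2 (DMT1) moves it into the cytosol, where ferritin, a shell of heavy (FTH1) and light (FTL) chains, stores what is not used. When iron is scarce, the iron regulatory proteins IRP1 (ACO1) and IRP2 (IREB2) bind a hairpin in mRNA, the iron responsive element (IRE). A hairpin in the 5′ untranslated region (UTR) then holds back translation, as in ferritin and in the exporter SLC40A1 (ferroportin), and the hairpins of the TFRC 3′ UTR protect that mRNA from decay.

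The hairpins are shown because they are the sequences through which these mRNAs are regulated in the cytoplasm. A pattern was searched in the UTRs of the canonical transcripts of GENCODE v44lift37 on GRCh37, on the sense strand only. It requires a bulged C, then 5 bases, the loop CAGTGN, and 5 bases that pair with the first 5 (A with T, G with C or G with T). With all 5 pairs formed, 4 members held it: TFRC in its 3′ UTR, and FTH1, FTL and SLC40A1 in the 5′ UTR. The 27-base windows are given on the strand of the mRNA, with the loop in capitals.
TFRC, chr3:195777851-195777877, minus strand: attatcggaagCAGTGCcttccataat
TFRC, chr3:195777447-195777473, minus strand: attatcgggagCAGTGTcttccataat
TFRC, chr3:195777382-195777408, minus strand: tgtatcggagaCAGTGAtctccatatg
TFRC, chr3:195777335-195777361, minus strand: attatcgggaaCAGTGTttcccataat
FTH1, chr11:61735047-61735073, minus strand: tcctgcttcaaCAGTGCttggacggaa
FTL, chr19:49468593-49468619, plus strand: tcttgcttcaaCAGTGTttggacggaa
SLC40A1, chr2:190445388-190445414, minus strand: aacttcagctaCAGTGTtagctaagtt
SLC11A2, chr12:51382053-51382079, minus strand: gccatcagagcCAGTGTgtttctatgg

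The SLC11A2 window lies in the 3′ UTR and forms 4 of the 5 pairs. Windows with 4 pairs were also found in the 3′ UTR of ACO1 and IREB2, where no such hairpin is part of the textbook account. All 5 pairs were formed in 18 of 19652 5′ UTRs (0.0916%) and in 121 of 19652 3′ UTRs (0.616%). With at least 4 pairs the shares were 0.514% and 4.24%, so the single 4-pair matches are common by comparison. Of the 19652 genes, 4 held 2 or more full matches in the same UTR, and TFRC was the gene with 4. The printed window began at base 34 of the transcript in FTH1, at base 28 in FTL and at base 99 in SLC40A1, and the 4 windows of TFRC spanned bases 939 to 1481 of a 3′ UTR of 2661 bases. A match describes the letters and not the occupancy by a protein.

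**Figure D1:**
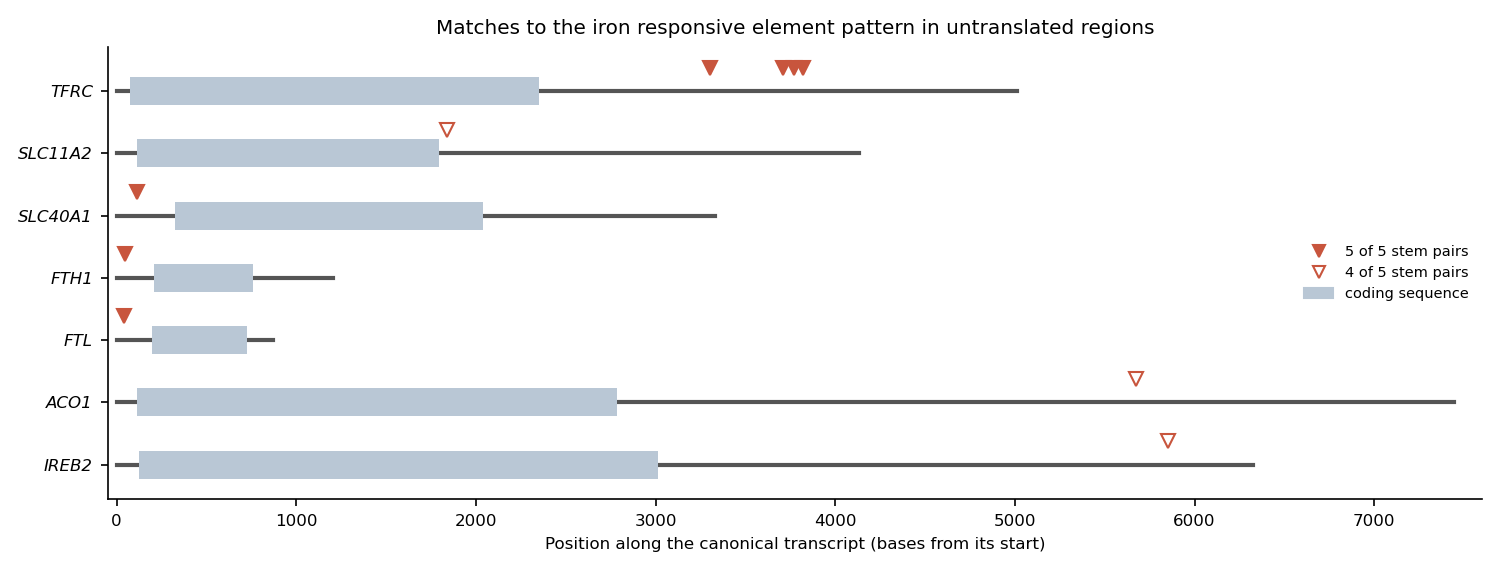
Canonical transcripts of 7 of the genes drawn to scale, with position in bases from the transcript start on the x axis, the coding sequence as a box and the UTRs as lines. Filled triangles mark matches with 5 of 5 stem pairs and open triangles 4 of 5, and the 4 matches of TFRC lie together in its 3′ UTR while those of FTH1, FTL and SLC40A1 lie before the coding sequence.

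The first question is how the 3 lines differ in these genes. It was tested on the counts with edgeR's quasi-likelihood test in a model over all 6 groups, at an adjusted p under 0.001 (Benjamini-Hochberg over 19948 genes). Between such different lines most genes differ: 65.9% of all genes passed for A-431 against U-2 OS in total RNA and 64.3% in cytoplasmic RNA. For A-431 against U-251MG 57.6% and 58.6% passed, and for U-251MG against U-2 OS 62.9% and 61.2%. Against that background 7 and 6, 7 and 7, and 5 and 5 of the 8 measured members passed. The counts against U-2 OS include SLC40A1, which entered these tests only because it was high in U-2 OS. A lower level can come from fewer cells that express a gene or from less RNA per cell, which cannot be told apart in bulk RNA.

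The clearest contrast was in ferritin. FTL, the light chain, was at 708, 718, 705 and 690 CPM in the total RNA libraries of U-2 OS, at 1438, 1562, 1695 and 1315 CPM in U-251MG, and at 279, 244, 244 and 246 CPM in A-431. No library of any line overlapped with those of another line. A-431 was 5.87-fold below U-251MG in total RNA (log2 ratio -2.55, SE 0.0708, adjusted p = 8.61e-26) and 6.21-fold below it in cytoplasmic RNA. U-251MG was 2.09-fold above U-2 OS in total and 2.37-fold above it in cytoplasmic RNA (adjusted p = 1.03e-15 and 2.50e-16).

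FTH1, the heavy chain with the ferroxidase site, went the other way. Its total RNA libraries stood at 415, 405, 433 and 417 CPM in U-2 OS, at 367, 412, 520 and 384 CPM in U-251MG, and at 716, 673, 701 and 729 CPM in A-431. The first 2 lines overlapped, and A-431 lay above both. A-431 was 1.67-fold above U-2 OS (log2 ratio 0.74, SE 0.121, adjusted p = 8.13e-06) and 1.70-fold above U-251MG (adjusted p = 7.09e-06) in total RNA, and 1.61-fold and 1.51-fold above them in cytoplasmic RNA (adjusted p = 6.64e-05 and 0.000142). FTH1 in cytoplasmic RNA of U-251MG spread from 394 to 671 CPM. In a fit of only the A-431 and U-251MG cytoplasmic groups that difference missed the threshold (log2 ratio 0.58, adjusted p = 0.00493), as it did without A-431 cytoplasmic library 24 (0.54, adjusted p = 0.00103).

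By the measured values FTH1 thus exceeded FTL only in A-431, on each scale used. Counting may lose reads of these genes, as described below, so which mRNA was the more abundant within a line was not settled. From the deposited RPKM, a level per exon length and sequencing depth, FTH1 over FTL was 0.810, 0.728, 0.680 and 0.933 in the total RNA libraries of U-2 OS, 0.338, 0.364, 0.354 and 0.342 in those of U-251MG, and 3.11, 3.28, 3.83 and 3.82 in A-431. In cytoplasmic RNA the ratio was 0.748 ± 0.110 (SD, n = 3) in U-2 OS, 0.326 ± 0.0767 (n = 4) in U-251MG and 3.51 ± 0.499 (n = 4) in A-431. The lines did not overlap in either fraction. The exact two-sided permutation test gave p = 0.0286 for each pair of lines in total RNA, the smallest that 4 against 4 libraries allow, which is 0.0514 after adjustment over 18 ratio tests. Between fractions the RPKM ratio overlapped in each line, with differences of total minus cytoplasmic on the log2 scale of 0.075, 0.13 and 0.0054 (exact p = 0.686, 0.457 and 1). As CPM per kilobase the differences were -0.14, -0.05 and 0.02 (exact p = 0.0571, 0.886 and 0.686), and in U-2 OS the fractions then did not overlap, with the ratio lower in total RNA, so the sign in that line depends on the scale. As CPM per kilobase of the canonical transcript the total RNA ratios were 0.428 ± 0.0161, 0.202 ± 0.0174 and 2.02 ± 0.123. The level of the ratio thus depends on the scale and the order of the lines does not. The read number deposited beside the RPKM was 3.06 times the gene counts for FTH1 and 1.53 times for FTL (medians over libraries).

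Ferritin is a case where counting may lose reads. FTH1 has 25 annotated processed copies, 24 of them among the counted genes, and FTL has 16, of which 11 are counted. The copies took 31.4% to 34.9% of the counts of FTH1 and its copies together, and 26.4% to 31.6% for FTL. FTH1P20 and FTH1P8 took the most for FTH1, with means of 75.8 and 66.5 CPM. Reads that match several places equally well were dropped by the counting. In GENCODE v44lift37, 63.2% of the exon bases of FTH1 also lie in exons of BEST1 on the other strand. Unstranded counting treats reads in shared bases as ambiguous. The authors counted with an earlier annotation, in which this overlap was not examined. BEST1 itself was at 0.33 to 4.34 CPM. With the copies added, the total RNA level of FTH1 was 631 ± 15.7, 628 ± 99.7 and 1048 ± 32.9 CPM and that of FTL 965 ± 17.1, 2069 ± 216 and 353 ± 23.9 CPM in the 3 lines. The log2 ratio of A-431 over U-251MG was then 0.75 for FTH1 and -2.55 for FTL, each within 1 SD of the value without the copies.

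SLC40A1, the only known cellular iron exporter, was detected in U-2 OS and at the limit of detection elsewhere. It was at 37.3, 41.8, 45.5 and 45.1 CPM in total RNA and at 39.1, 39.4 and 42.0 CPM in cytoplasmic RNA of U-2 OS. The other lines held 0 to 2 counts per library. Over the 4 total RNA libraries of A-431 the sum was 0 counts, and U-2 OS was at least 1608-fold higher against a floor of 3 counts over the group. U-251MG held 1 count in total RNA, a ratio of 4674 with an exact 95% counting interval of 838.4 to 184600. In cytoplasmic RNA U-251MG and A-431 held 3 counts each, with ratios of 1550 (530.0 to 7521) and 1715 (586.4 to 8321). These intervals cover counting error only. SLC40A1 entered the tests between lines through U-2 OS alone, so its calls there follow from where it was high, and between A-431 and U-251MG it was at or under the floor in both.

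TFRC, whose product takes up transferrin-bound iron, was highest in U-251MG. Its total RNA libraries were at 505, 473, 438 and 487 CPM in U-2 OS, at 730, 789, 711 and 1033 CPM in U-251MG, and at 507, 535, 530 and 519 CPM in A-431. U-251MG did not overlap with either other line, and it was 1.68-fold above U-2 OS (log2 ratio 0.75, SE 0.0966, adjusted p = 7.83e-08) and 1.54-fold above A-431 (adjusted p = 1.64e-06). In cytoplasmic RNA U-251MG was 1.37-fold above U-2 OS (log2 ratio 0.45, SE 0.105, adjusted p = 0.000339) and 1.68-fold above A-431 (adjusted p = 9.06e-08). The first of these calls was lost without U-2 OS cytoplasmic library 14 or 15 or without U-251MG cytoplasmic library 19 (adjusted p = 0.00226, 0.00377 and 0.00188), and on flow cell A alone (0.57, adjusted p = 0.00363). A-431 and U-2 OS stood in opposite order in the 2 fractions: A-431 was above U-2 OS in total RNA (log2 ratio 0.12, SE 0.0962, adjusted p = 0.243) and below it in cytoplasmic RNA (-0.29, SE 0.104, adjusted p = 0.0123), and neither passed.

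STEAP3, the endosomal ferrireductase, was lowest in A-431. It was at 131, 123, 135 and 125 CPM in total RNA of U-2 OS, at 117, 144, 125.5 and 125 CPM in U-251MG and at 42.1, 44.6, 38.9 and 40.8 CPM in A-431. A-431 was 3.11-fold below U-2 OS (log2 ratio -1.64, SE 0.0652, adjusted p = 2.19e-21) and 3.05-fold below U-251MG in total RNA, and 3.22-fold and 3.10-fold below them in cytoplasmic RNA. Between U-251MG and U-2 OS the log2 ratio was -0.03 (SE 0.0623, adjusted p = 0.651) in total RNA, and with an offset for GC content it was 0.26 (adjusted p = 2.08e-05), so that comparison turns with the treatment of GC content. An antisense transcript, STEAP3-AS1, covers 10.96% of the exon bases of STEAP3 and was at 0.42 to 4.14 CPM.

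SLC11A2, the divalent metal transporter, was lowest in U-251MG. It was at 40.0, 43.9, 41.1 and 40.9 CPM in total RNA of U-2 OS, at 23.5, 21.6, 19.6 and 21.1 CPM in U-251MG and at 50.5, 44.4, 54.5 and 53.6 CPM in A-431. U-251MG was 1.97-fold below U-2 OS (adjusted p = 1.60e-14) and 2.39-fold below A-431 (adjusted p = 1.89e-17) in total RNA, and 2.06-fold and 2.35-fold below them in cytoplasmic RNA. A-431 was 1.21-fold above U-2 OS in total RNA (adjusted p = 0.000298), a call that was lost in 5 of the fits with a library left out, those without U-2 OS total library 1, 3 or 4 or A-431 total library 11 or 12 (adjusted p up to 0.00214). In cytoplasmic RNA it was 1.14-fold above (adjusted p = 0.0153).

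The sensors also differed between lines. ACO1, which is cytosolic aconitase when it holds an iron-sulfur cluster and IRP1 when it does not, was at 129, 120, 121 and 123 CPM in total RNA of U-2 OS, at 51.8, 62.6, 54.4 and 60.7 CPM in U-251MG and at 106, 101, 106 and 103 CPM in A-431. U-251MG was 2.18-fold below U-2 OS (adjusted p = 2.09e-17) and 1.83-fold below A-431 (adjusted p = 2.01e-14) in total RNA, and 2.40-fold and 1.84-fold below them in cytoplasmic RNA. A-431 was 1.20-fold below U-2 OS in total RNA (adjusted p = 0.000273) and 1.31-fold below it in cytoplasmic RNA (adjusted p = 2.44e-06). The first of these was lost without U-2 OS total library 1, A-431 total library 10 or A-431 total library 12 (adjusted p = 0.00181, 0.00201 and 0.00108), without a filter on low counts (0.0112) and on flow cell A alone (0.00492).

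IREB2, or IRP2, which is degraded when iron is plentiful, was at 147, 146, 141 and 157 CPM in total RNA of U-2 OS, at 152, 164, 164 and 165 CPM in U-251MG and at 100, 90.1, 107 and 103 CPM in A-431. A-431 lay below both other lines, 1.49-fold below U-2 OS (log2 ratio -0.57, SE 0.0580, adjusted p = 9.33e-11) and 1.59-fold below U-251MG (adjusted p = 2.84e-12) in total RNA, and 1.61-fold and 1.48-fold below them in cytoplasmic RNA. U-251MG and U-2 OS overlapped, with a log2 ratio of 0.10 (SE 0.0575, adjusted p = 0.123) in total and -0.13 (SE 0.0622, adjusted p = 0.0576) in cytoplasmic RNA.

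From RPKM, IREB2 over ACO1 was 0.670, 0.725, 0.688 and 0.692 in the total RNA libraries of U-2 OS, 1.38, 1.03, 1.40 and 1.13 in those of U-251MG, and 0.438, 0.453, 0.539 and 0.499 in A-431. The lines did not overlap, in the order U-251MG, U-2 OS, A-431 in both fractions (exact two-sided p = 0.0286 for each pair in total RNA, 0.0514 adjusted over 18 tests). Which of the genes is the more abundant depends on the scale used. As CPM per kilobase of the canonical transcript the ratio was 1.41 ± 0.0747, 3.32 ± 0.220 and 1.13 ± 0.0620 in the same 3 groups. On that scale IREB2 was above ACO1 in total RNA of every line. The scales differ in length and in reads: the read number beside the RPKM was 5.99 times the gene counts for ACO1 and 1.37 times for IREB2 (medians over libraries).

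**Figure D2:**
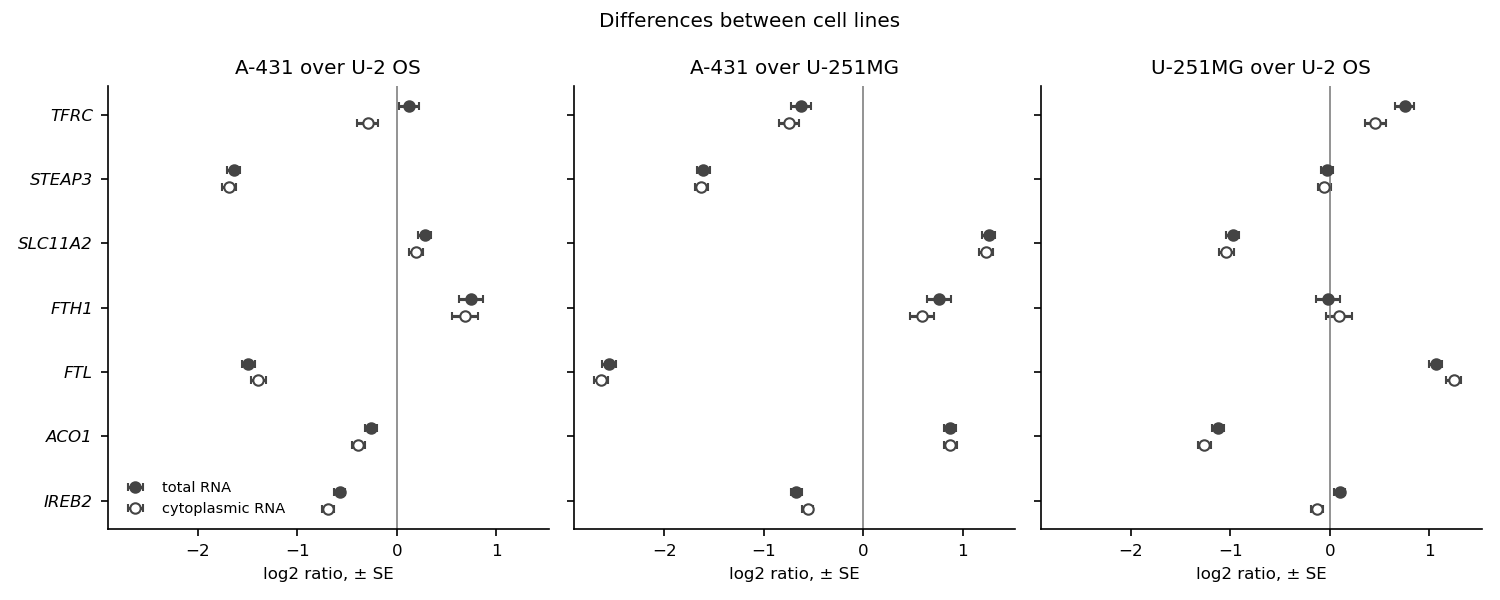
Log2 ratio between cell lines for 7 genes, with the standard error as bars, for total RNA (filled) and cytoplasmic RNA (open). FTL is the gene farthest below 0 for A-431 over U-251MG, at -2.55 and -2.63, where FTH1, SLC11A2 and ACO1 lie above 0.

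**Figure D3:**
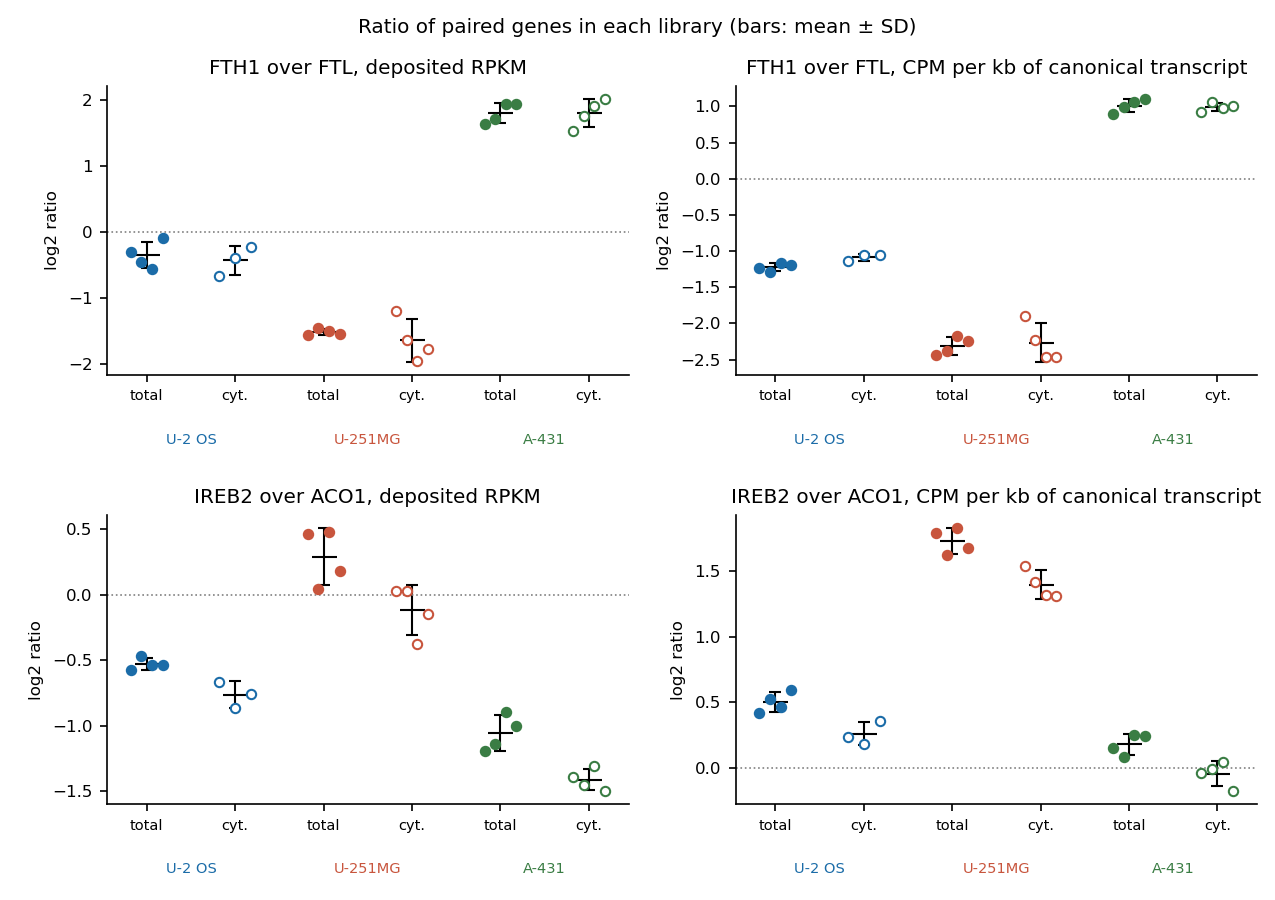
Log2 of FTH1 over FTL (top) and IREB2 over ACO1 (bottom) in each library, from RPKM (left) and from CPM per kilobase of the canonical transcript (right), with mean ± SD. FTH1 over FTL lies above 0 in the 8 libraries of A-431 and below 0 in the other 15 on either scale, and IREB2 over ACO1 shifts with the scale.

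Within a line, the ferritin chains and TFRC held the first 3 places by RPKM and by CPM per kilobase of the canonical transcript. Per kilobase of summed exons STEAP3 stood above TFRC in U-2 OS, at 28.1 ± 1.23 against 27.4 ± 1.63 CPM per kilobase in total RNA, where they overlapped. In cytoplasmic RNA they stood at 32.9 ± 1.28 against 24.7 ± 1.75 and did not overlap. The summed exons of TFRC measure 17376 bases against 5012 in its canonical transcript, and those of STEAP3 4562 against 4259. That order thus depends on the length taken for TFRC. By RPKM in total RNA, FTL led in U-2 OS (3333 ± 264) as well as U-251MG (6482 ± 371), and FTH1 led in A-431 (4005 ± 346). TFRC followed ferritin in U-2 OS (1513 ± 154 RPKM) and stood in second place in U-251MG (2388 ± 314) and A-431 (1540 ± 76.9), and it stood behind both ferritin chains as CPM per kilobase of the canonical transcript. In U-251MG the RPKM of TFRC and FTH1 overlapped. The lower places were ACO1, STEAP3 and IREB2 in U-2 OS, at 742 ± 53.2, 569 ± 126 and 514 ± 25.2 RPKM, of which ACO1 and STEAP3, and STEAP3 and IREB2, overlapped. SLC11A2 stood at 170 ± 24.6, 92.0 ± 5.66 and 209 ± 24.4 RPKM in total RNA. SLC40A1 came last by RPKM in each line, and in U-2 OS it overlapped with SLC11A2 in total RNA and stood above it as CPM per kilobase. The read numbers deposited beside the RPKM were 1.37 times the gene counts for IREB2 and 8.23 times for STEAP3 (medians over libraries), so RPKM is not strictly comparable between genes, and 2 to 6 members changed place between RPKM and CPM per kilobase of summed exons.

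**Figure D4:**
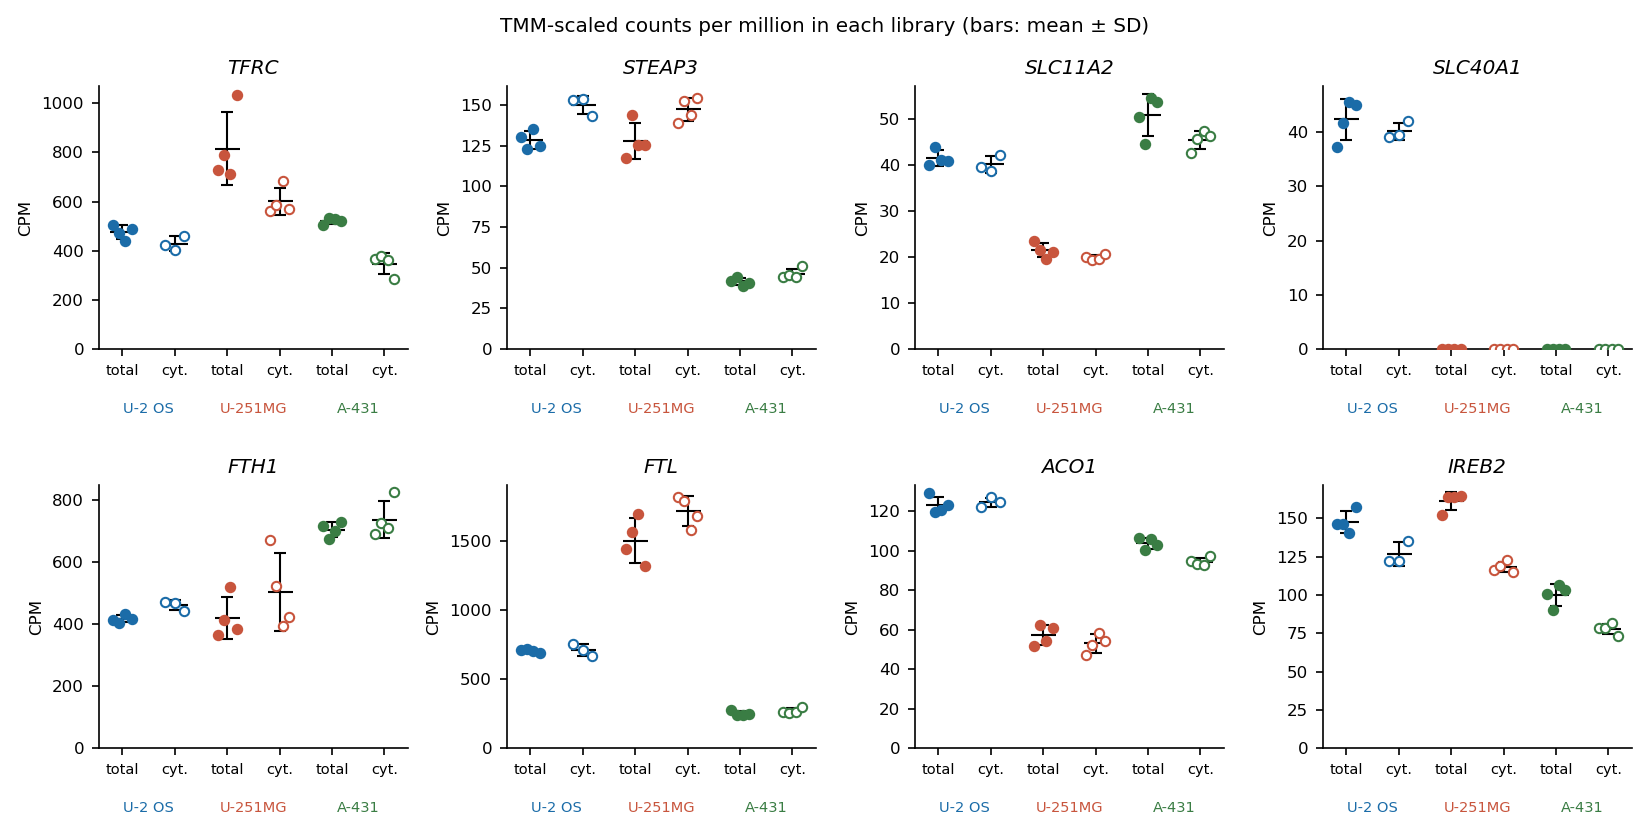
TMM-scaled CPM of the 8 measured genes in each of the 23 libraries, total RNA filled and cytoplasmic RNA open, with mean ± SD. SLC40A1 is above 37 CPM in U-2 OS alone, STEAP3 is below 51 CPM in A-431 alone, and IREB2 is higher in total than in cytoplasmic RNA in each line.

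The second question is how the same mRNAs divide between total and cytoplasmic RNA. Each line was fitted alone (adjusted p under 0.001), and 8.37% of 18049 genes passed in U-2 OS. The share was 12.9% of 16128 genes for U-251MG, and it was 19.7% of 16376 for A-431. Of the members tested, 0 of 8 passed in U-2 OS (edgeR, with 4 at an unadjusted p under 0.05, and 1 by DESeq2), 1 of 7 in U-251MG (4 unadjusted) and 2 of 7 in A-431 (5 unadjusted). Over all genes, 7115 of 18049, 8967 of 16128 and 9287 of 16376 stood at an unadjusted p under 0.05, and DESeq2 called 1723, 4219 and 4482. The median log2 ratio of the members was 0.03, 0.09 and 0.13 beside -0.0013, 0.00049 and -0.01 over all genes. SLC40A1 was tested in U-2 OS only.

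IREB2 was higher in total RNA in each line, with no overlap between fractions. In U-251MG the total RNA libraries at 152 to 165 CPM stood against 116, 119, 123 and 115 CPM in cytoplasmic RNA (log2 ratio 0.43, SE 0.0570, adjusted p = 0.000163). In A-431 90.1 to 107 CPM stood against 78.4, 78.6, 81.5 and 73.0 CPM (log2 ratio 0.35, SE 0.0596, adjusted p = 0.000156). In U-2 OS 141 to 157 CPM stood against 122, 122 and 135 CPM, and the log2 ratio of 0.23 (SE 0.0534, adjusted p = 0.00139) missed the threshold. The transcript of IREB2 is poor in G and C: its 38.2% lies at the 8.6th percentile of 19652 coding genes. With an offset for GC content in the fit, the log2 ratio of IREB2 was 0.08 (SE 0.0543, adjusted p = 0.347) in U-251MG, 0.07 (SE 0.0387, adjusted p = 0.165) in A-431 and 0.04 (SE 0.0393, adjusted p = 0.507) in U-2 OS. The call in U-251MG was also lost without its cytoplasmic library 20 (0.41, adjusted p = 0.00103) and on flow cell A alone (0.42, adjusted p = 0.00296).

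TFRC had the largest ratio of the members in A-431. Its total RNA libraries at 507 to 535 CPM stood against 366, 377, 361 and 286 CPM in cytoplasmic RNA (log2 ratio 0.58, SE 0.0734, adjusted p = 1.17e-05). In U-251MG 711 to 1033 CPM stood against 563, 586, 684 and 570 CPM, again without overlap (log2 ratio 0.42, SE 0.107, adjusted p = 0.00645). In U-2 OS the fractions overlapped, at 438 to 505 against 425, 401 and 462 CPM (log2 ratio 0.15, SE 0.0547, adjusted p = 0.0308). The GC content of TFRC is 40.9%, at the 18.9th percentile. With the GC offset the ratio in A-431 was 0.37 (SE 0.0600, adjusted p = 0.000370) and still passed, while U-251MG came to 0.16 and U-2 OS to 0.02. RPKM gave the same direction in A-431, with 1475 to 1647 in total and 834 to 1010 in cytoplasmic RNA, from the same reads.

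The other members did not pass in any line. STEAP3 lay below 0 in each line: the log2 ratio was -0.22 (SE 0.0516, adjusted p = 0.00127) in U-2 OS, where 123 to 135 CPM in total did not overlap with 153, 154 and 143 CPM in cytoplasmic RNA, -0.22 (adjusted p = 0.0172) in U-251MG and -0.16 (adjusted p = 0.0431) in A-431. With the GC offset it was -0.08, 0.09 and 0.05. The RPKM of STEAP3 in U-2 OS went the other way, from 453 to 711 in total and from 350 to 430 in cytoplasmic RNA. The mean RPKM did so in U-251MG (448 ± 158 in total, 325 ± 60.2 in cytoplasmic RNA) and A-431 (133 ± 43.8 and 116 ± 19.7), where the fractions overlapped. The direction thus depends on the measure read. FTH1 had log2 ratios of -0.14, -0.28 and -0.07 (adjusted p = 0.0298, 0.233 and 0.294) and FTL of -0.0025, -0.21 and -0.09 (adjusted p = 0.979, 0.0605 and 0.197). The fractions of FTH1 did not overlap in U-2 OS, and both chains overlapped between fractions otherwise. With the GC offset FTL turned to 0.12, 0.07 and 0.10. SLC11A2 had 0.05, 0.09 and 0.15, and ACO1 -0.01, 0.09 and 0.13. SLC40A1 in U-2 OS had 0.09 (SE 0.0666, adjusted p = 0.361).

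In U-2 OS, libraries that share a number in the study deviated together. A fit of the 3 numbered pairs with the number as a block, which drops total RNA library 1, called 19.2% of 17974 genes and 2 of the 8 members: IREB2 (log2 ratio 0.23, SE 0.0397, adjusted p = 1.11e-06) and STEAP3 (-0.23, SE 0.0400, adjusted p = 2.08e-06). With the library that had been left out added to the unblocked fit, 0 of 8 members passed, with IREB2 at 0.24 (adjusted p = 0.00190) and STEAP3 at -0.23 (adjusted p = 0.00147).

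**Figure D5:**
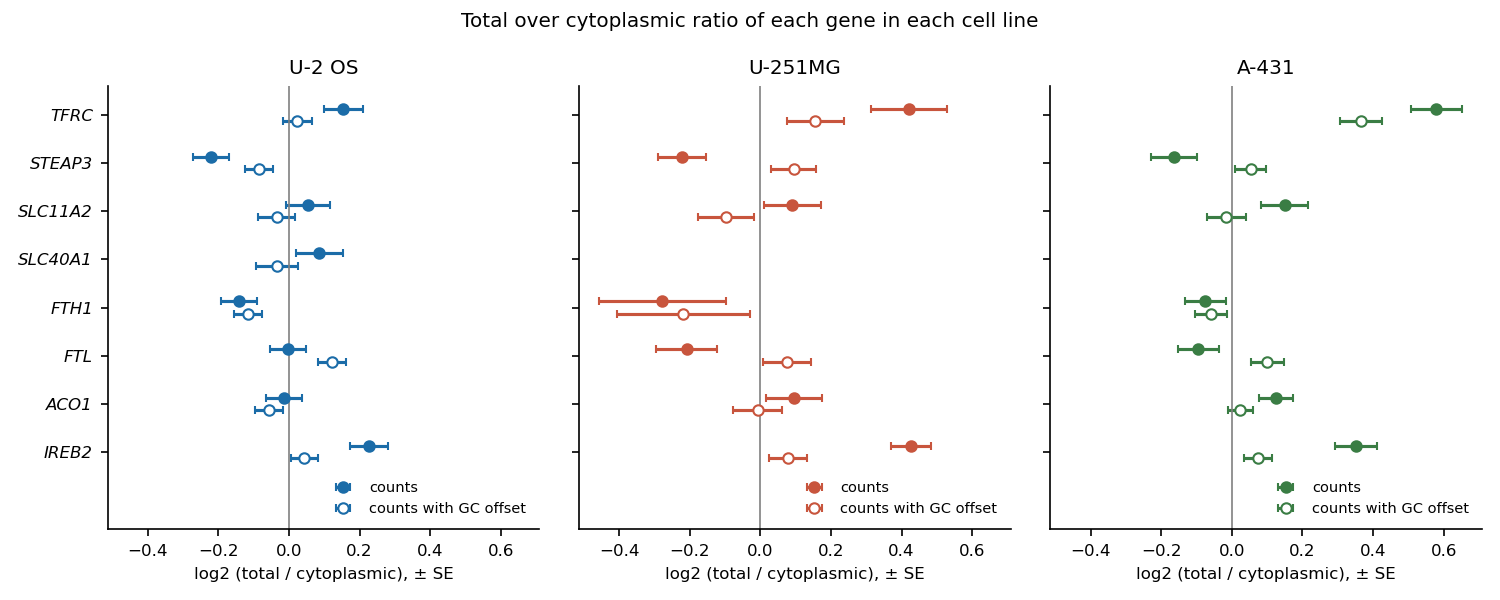
Log2 ratio of total over cytoplasmic RNA for each gene and line, with the standard error as bars, from the counts (filled) and with an offset for GC content (open). The filled point of IREB2 lies to the right of 0 in each line and its open point is closer to 0, and TFRC in A-431 moves from 0.58 to 0.37.

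The difference of these ratios between lines was tested as an interaction in the model over 6 groups at an adjusted p under 0.05, where 2.12% of 19948 genes passed for A-431 against U-2 OS. The share was 0.16% for A-431 against U-251MG, and 1.67% when U-251MG was set against U-2 OS. For the members the counts were 0, 0 and 0 of 8 by edgeR, with 2, 0 and 2 at an unadjusted p under 0.05, and 1, 0 and 1 by DESeq2. The 8 include SLC40A1, which entered the model only because it was high in U-2 OS. It is among the 2 for A-431 against U-2 OS (-2.74, SE 1.30, unadjusted p = 0.0488 by edgeR). Its ratio in A-431 rests on 0 counts in total and 3 counts in cytoplasmic RNA, so it is not read as a difference. Of all 19948 genes, 2916, 1529 and 3850 stood at an unadjusted p under 0.05 by edgeR. The DESeq2 counts are given without the share over all genes and are not read as a result about the members. For TFRC the ratio of A-431 exceeded that of U-2 OS by 0.42 (SE 0.141, adjusted p = 0.133 by edgeR and 0.0460 by DESeq2, and 0.0241 by edgeR without U-251MG total library 8). For IREB2 the ratio of U-251MG exceeded that of U-2 OS by 0.23 (SE 0.0847, adjusted p = 0.138 by edgeR and 0.0486 by DESeq2). Both differences thus passed by DESeq2 and not by edgeR's fit of the 23 libraries, and TFRC passed by edgeR in the left-out fit named above.

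The ratio of the sensors, IREB2 over ACO1, was lower in cytoplasmic than in total RNA in each line, by 0.23, 0.41 and 0.36 on the log2 scale from RPKM. The fractions did not overlap (exact two-sided p = 0.0571, 0.0286 and 0.0286, the smallest that 4 against 3 and 4 against 4 libraries allow, and 0.0686, 0.0514 and 0.0514 after adjustment over 18 tests). The GC content of ACO1, 45.6%, is above that of IREB2.

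The rest of the pathway was described from 4 lists. Of 29 other genes of iron transport and storage, 21, 19 and 21 were tested between fractions. No gene passed in U-2 OS (10 at an unadjusted p under 0.05, 0 by DESeq2) or U-251MG (11 unadjusted, 8 by DESeq2), and 5 of 21 passed in A-431, beside 8.37%, 12.9% and 19.7% of all genes. The unadjusted counts over all genes were 7115 of 18049 in U-2 OS and 8967 of 16128 in U-251MG, and DESeq2 called 1723 and 4219 genes there. In A-431 CYBRD1, a ferric reductase, and EXOC6, of the exocyst, were higher in total RNA (0.30 and 0.40). The mitochondrial iron importers SLC25A37 and SLC25A28 and the protease TMPRSS6 were lower (-0.51, -0.69 and -1.87). These 5 are named because they passed. The medians were 0.09, 0.07 and 0.13 on the log2 scale beside -0.0013, 0.00049 and -0.01 over all genes. The most abundant were the iron chaperones PCBP2 (-0.04, -0.10 and -0.07) and PCBP1 (0.17, -0.06 and -0.04) and the sorting nexin SNX3, which recycles the transferrin receptor and lay at 0.23, 0.26 and 0.21 (adjusted p = 0.00178, 0.00204 and 0.00187), above the threshold in each line.

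Of 20 genes of heme synthesis, transport and breakdown, 18, 17 and 18 were tested. By edgeR 0, 0 and 0 were higher in total RNA (4, 3 and 4 at an unadjusted p under 0.05, and 0, 0 and 1 by DESeq2), and 2, 3 and 2 were lower (5, 7 and 7 unadjusted, and 3, 4 and 4 by DESeq2). Over all genes 8.37%, 12.9% and 19.7% were called in either direction. An unadjusted p under 0.05 was reached by 7115 of 18049, 8967 of 16128 and 9287 of 16376 genes. By DESeq2 1723, 4219 and 4482 genes were called. The medians were -0.0021, -0.07 and -0.07. UROD, the uroporphyrinogen decarboxylase, was lower in total RNA in U-2 OS (-0.37, adjusted p = 1.28e-05) and U-251MG (-0.47, adjusted p = 0.000457) and was at -0.28 (adjusted p = 0.00168) in A-431. TMEM14C, a mitochondrial porphyrin carrier, lay at 0.08, -0.07 and 0.01, and CPOX, the coproporphyrinogen oxidase, at 0.24, 0.37 and 0.19 with no call.

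Of 30 genes of iron-sulfur cluster assembly and of the enzymes that carry such clusters, 29 were tested in each line. The higher ones in total RNA numbered 2, 1 and 1, and the lower ones 3, 5 and 6, together 5, 6 and 7 of 29 beside 8.37%, 12.9% and 19.7% of all genes. At an unadjusted p under 0.05 there were 17, 16 and 19 of 29, beside 7115 of 18049, 8967 of 16128 and 9287 of 16376 over all genes. By DESeq2 there were 6, 8 and 10, beside 1723, 4219 and 4482 over all genes. The medians were 0.01, 0.0092 and -0.0044. FDXR, the reductase that supplies electrons to ferredoxin, was called lower in total RNA in all 3 lines, at -0.49, -0.83 and -0.65 (adjusted p = 3.56e-05, 0.000665 and 4.08e-05). MMS19, of the cytosolic targeting complex, was lower in U-2 OS (-0.30, adjusted p = 0.000155) and U-251MG (-0.37, adjusted p = 0.000559), and CIAO1 of the same complex in A-431 (-0.25, adjusted p = 0.000520). The mitochondrial chaperone HSPA9 was at 0.12, 0.17 and 0.24 with no call.

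Of 5 other mRNAs described with an IRE, 4 were tested, and 1, 0 and 1 passed, beside 8.37%, 12.9% and 19.7% of all genes. At an unadjusted p under 0.05 there were 3, 3 and 2, beside 7115 of 18049, 8967 of 16128 and 9287 of 16376 over all genes. By DESeq2 1, 0 and 1 passed, beside 1723, 4219 and 4482 over all genes. The kinase CDC42BPA was at 0.15, 0.35 and 0.35 and was called in A-431 (adjusted p = 0.000351). EPAS1, the hypoxia factor HIF-2α, was at -0.02, -0.02 and 0.07 with no call. With the GC offset the heme list held no call in U-251MG or A-431 and 2 in U-2 OS, the iron-sulfur list 1, 0 and 1, and the transport and storage list 1, 0 and 2. With U-2 OS blocked by number, 2, 7 and 10 genes of the transport and storage, heme and iron-sulfur lists passed in that line. That fit called 19.2% of 17974 genes.

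Across the 23 libraries, the protein-coding genes whose log2 CPM followed each member most closely were sought among the 9213 whose mean log2 CPM reached 3 (9214 for SLC40A1). They were DNM1L and CAPRIN1 for TFRC (Pearson r = 0.976 and 0.972), P3H1 and MRC2 for STEAP3 (0.993 and 0.993), LITAF and PALS1 for SLC11A2 (0.991 and 0.988), and JUNB and TNKS1BP1 for FTH1 (0.9498 and 0.941). NEDD9 and MXRA7 came first for FTL (0.997 and 0.995), PNMA1 and ZBTB39 for SLC40A1 (0.996 and 0.993), HYLS1 and ITSN1 for ACO1 (0.990 and 0.990), and CNOT6 and PBRM1 for IREB2 (0.985 and 0.983). With 3 lines the libraries fall into 3 clusters, so such values describe a shared order of the lines and fractions.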

How the data were processed

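Total and cytoplasmic poly(A) RNA of 3 cell lines was measured by Illumina sequencing. The labels name Trizol and paired ends, the study's methods RNeasy and single reads. Per the labels, the authors used TopHat 1.1.4 (hg19) with SAMtools 0.1.8 and deposited raw counts per Ensembl gene from HTSeq 0.4.6 (reads wholly within exons, strand ignored). The authors also deposited RPKM per gene from rpkmforgenes, and beside it a read number, treated here as a score because it exceeds the counts.

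Counts were tested with edgeR 4.0.16 in R 4.3.3 (TMM, filterByExpr, robust quasi-likelihood, Benjamini-Hochberg adjustment over all genes tested), in each line alone for the fractions and over 6 groups otherwise. Log2 CPM used a prior count of 2. Rows naming no gene, with 25.9% to 33.6% of all entries, were left out. Exact permutation tests compared ratios. The flow cell and the study's replicate numbers come from read totals, and numbers paired U-2 OS libraries by their deviations from the group means (r from 0.181 to 0.423 in 3 pairs). Other cell lines did not meet this. Scripts were tested on simulated data. Gene models for lengths, overlaps, GC content and UTRs are GENCODE v44lift37, which is not the annotation behind the deposited counts.

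The members and lists were chosen with earlier results of these data known. All members are named, as are the 3 most abundant tested genes of each list and those called in all lines, the 2 genes most like each member, up to 2 pseudogenes, and EGFR, GFAP, SPARC, MALAT1 and NEAT1. The alternatives were RLE scaling, DESeq2 1.42.0, no filter, all libraries, each library left out, a GC offset (lowess span 0.3), flow cell A, other models and thresholds, other length scales and pseudogene copies. A gene that the rule names is not reported here. CPM per kilobase of the canonical transcript was added after the data were seen.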

Additional observations from a re-analysis of the deposited data

Results flagged for a closer look

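In 36 groups of 4 libraries, 2 held a library far from the other 3 by Dixon's test, where chance gives about 1 in 20. FTL in total RNA of A-431 was at 279 CPM (278.54) in library 9 and at 243.63 to 246.41 CPM in the others. IREB2 in total RNA of U-251MG was at 152.33 CPM in library 5 and at 163.75 to 164.55 CPM in the others.

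TFRC stood out because every A-431 library lay above every U-2 OS library in total RNA (log2 ratio 0.12) and below every U-2 OS library in cytoplasmic RNA (-0.29). In total RNA the lowest A-431 library was at 506.64 CPM and the highest U-2 OS library at 505.39 CPM. All A-431 cytoplasmic libraries were run on flow cell B. How many of all genes separate in this way was not counted. The difference of the differences was 0.42 (SE 0.141), with an unadjusted p of 0.00676 and an adjusted p of 0.133 in edgeR's model over 6 groups.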

How the results depend on the processing

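Between lines, the counts of called members stayed within 1.5 times under every alternative run. STEAP3 in U-251MG over U-2 OS, total RNA, was not called at -0.03 and was called at 0.26 with the GC offset. In U-2 OS the 0 called members of the fraction comparison became 1 with DESeq2, 2 without a filter on low counts, 2 with the replicate block, 4 at an adjusted p under 0.05 and 0 to 2 with a library left out (2 without total library 3 or cytoplasmic library 16). In U-251MG 1 became 2 with DESeq2, 2 in the model over all groups, 0 with the GC offset, 0 on flow cell A, 3 at 0.05 and 0 to 1 with a library left out. In A-431 2 became 1 with the GC offset and 4 at 0.05. The 0 interactions became 1 for A-431 against U-2 OS with DESeq2, 0 to 1 with a library left out, and 1 for U-251MG against U-2 OS with DESeq2. The cause of these changes was not tested, except that flow cell A and left-out fits hold fewer libraries. Over all genes the calls numbered 1510, 2083 and 3234 in the 3 lines, and 537, 161 and 1290 with the GC offset, 1723, 4219 and 4482 with DESeq2, 2194, 3765 and 4834 without a filter, and 190, 4948 and 2892 in the model over all groups. On flow cell A they numbered 126 for U-2 OS, then 52 for U-251MG.

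The replicate block changed the calls of IREB2 and STEAP3 in U-2 OS and no other member's call. Same-numbered libraries correlated at -0.54 to 0.48 in U-251MG, where 1 of 4 was closest to its own number, and at 0.0316 to 0.478 in A-431, where 2 of 4 were. There the block gave 1582 and 4293 calls over all genes. By CPM per kilobase of summed exons, 5, 2 and 4 members changed place in total RNA of the 3 lines and 6, 2 and 3 in cytoplasmic RNA. Per canonical transcript 5, 2 and 4, and 4, 2 and 0 did. Allowing 4 stem pairs raised the members with an IRE match from 4 to 7. Depth limits SLC40A1 outside U-2 OS, where 3 counts correspond to 0.0926 to 0.151 CPM.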
